A study of Mus musculus with 2 samples.

Results

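Collagens, laminins and the proteins that tie them together in basement membranes were followed through droplet single-cell RNA sequencing of sorted mouse lung cells. Members were all symbols that start with Col and a digit, or with Lama, Lamb or Lamc and a digit, together with Nid1, Nid2, Hspg2 and Agrn, provided that at least 20 UMIs (unique molecular identifiers, which count captured transcripts) were summed over barcodes with at least 2000 UMIs. Of 60 matching symbols among 28692 genes, 40 passed, namely 27 of 44 collagen chains, 9 of 11 laminin chains, 3 of 4 linker genes and Col4a3bp. That last symbol matches by its letters only, since Col4a3bp encodes a ceramide transfer protein, so it is given apart. A further 20 symbols stayed under the minimum.

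Each group was 1 library of wild-type C57BL/6 lung cells. The tumor-bearing group was taken 14 days after 1000000 luciferase-labelled LLC cells (Lewis lung carcinoma, a mouse lung cancer line) were placed under the skin of the back, and the control group was untreated. Both were gated as CD45-negative and SftpC-positive, with a stated purity above 95%, after digestion with collagenase, and the ages and sexes of the mice are not given in the sources used here. With 1 library per group, a difference between the groups has no replicate check, and the 2 mice, the 2 sorts and the tumor cannot be told apart.

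Basement membranes are thin sheets of matrix under epithelia and around vessels. Laminins, trimers of an alpha, a beta and a gamma chain, bind to cell-surface receptors and form a network, and collagen IV trimers form another. Nidogen, perlecan (Hspg2) and agrin (Agrn) connect the networks. In the lung alveolus the basement membranes of the epithelium and the capillary are fused in the thin part of the gas exchange wall. Fibrillar collagens lie outside it, in the stroma, and are the known products of fibroblasts.

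The libraries held 84448360 UMIs (tumor-bearing) and 91498124 UMIs (control). Droplets with at least 2000 UMIs numbered 8193 and 11007, with medians of 8687 and 6867 UMIs, and 128 barcodes occurred in both. Members took up 31581 and 32166 UMIs in them, or 0.0418% and 0.0406% of the droplets' UMIs. Alveolar type 2 (AT2) droplets, defined by Sftpc at 15% or more of their UMIs and no mark of another class, numbered 6547 and 9893, or 79.9% and 89.9%. Marker genes that are not members gave 148 and 320 AT1-marked droplets (alveolar type 1, the flat cells of gas exchange), 486 and 59 endothelial-marked, 22 and 45 basal-marked, 116 and 52 fibroblast-marked, 216 and 292 ciliated-marked and 296 and 71 club-marked droplets. Endothelial cells, fibroblasts and airway cells lie outside the stated gate. AT1-marked droplets were also low in the transcript of its marker. Their median Sftpc shares were 0.981% and 1.64%, against 26.8% and 26.4% in AT2 droplets.

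Shares of the marker lists describe the classes. A class's own markers had to be high in it, since the same list set the mark, so their share is no check of it. AT1 markers made up 4.62% and 4.32% of UMIs in AT1-marked droplets against 0.243% in AT2 droplets of the tumor-bearing library, and AT2 markers still made up 5.50% and 6.85%. In fibroblast-marked droplets AT2 markers made up 28.1% and 27.5% of UMIs, fibroblast markers 0.488% and 0.411%, and 81 of the 116 and 41 of the 52 also carried Sftpc at 15% or more. These are therefore called by their mark and not as a cell type. In basal-marked droplets, fibroblast-list UMIs were almost all from 1 gene, Dcn (decorin), with 286 of 289 and 392 of 395 UMIs.

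The 2 pairs of collagen IV genes that lead the alveolar results lie head to head. Col4a3 (ENSMUSG00000079465, chr1:82586921-82722059, plus strand) and Col4a4 (ENSMUSG00000067158, chr1:82448423-82586849, minus strand) have annotated starts 72 bases apart. Col4a2 (ENSMUSG00000031503, chr8:11312805-11449287, plus strand) and Col4a1 (ENSMUSG00000031502, chr8:11198423-11312826, minus strand) have annotated starts 21 bases apart, with the transcripts overlapping. One promoter window is shown for each pair because both chains of a pair rose together in AT1-marked droplets, and because a window for either gene holds the start of its neighbour. The windows are RefSeq sequence on GRCm38.p6, from 250 bases before to 50 bases after the start, on the strand of the named gene. Capitals mark the NF-Y motif spelled CCAAT and the Sp-factor motif spelled GGGCGG on either strand.
Col4a4, chr1:82586800-82587099, minus strand: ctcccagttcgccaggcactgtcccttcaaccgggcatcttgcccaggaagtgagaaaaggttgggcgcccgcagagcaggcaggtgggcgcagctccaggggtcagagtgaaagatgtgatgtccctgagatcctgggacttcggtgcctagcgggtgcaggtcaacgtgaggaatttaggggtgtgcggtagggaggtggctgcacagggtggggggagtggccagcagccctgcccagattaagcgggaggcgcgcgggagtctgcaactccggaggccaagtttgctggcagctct
Col4a1, chr8:11312777-11313076, minus strand: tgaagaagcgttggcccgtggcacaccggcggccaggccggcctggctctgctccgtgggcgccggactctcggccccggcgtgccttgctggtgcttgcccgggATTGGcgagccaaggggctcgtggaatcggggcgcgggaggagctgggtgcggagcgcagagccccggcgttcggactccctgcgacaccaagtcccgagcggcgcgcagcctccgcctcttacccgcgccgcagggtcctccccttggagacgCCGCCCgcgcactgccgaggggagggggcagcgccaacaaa
The Col4a4 window is 63.3% GC and holds the Col4a3 start, with no match on either strand to the motif CCAAT, which the factor NF-Y is known to bind, to the Sp-factor motif spelled GGGCGG, to the core promoter motif spelled TATAAA or to the TEAD-factor motif spelled GGAATG. The Col4a1 window is 74.0% GC and holds the Col4a2 start, with 1 NF-Y motif and 1 Sp motif. These motifs do not overlap each other. The Col4a2 window, not shown here, holds 1 NF-Y motif and 3 Sp motifs. For comparison, 37.41% of all 32851 windows hold the NF-Y motif, 35.66% the Sp motif, 13.62% the core promoter motif and 14.66% the TEAD motif, and their median GC content is 52.67%. A match is a description of letters only. Windows were matched for 30 of the 40 members, and Col4a3 had none.

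Each class was compared with AT2 droplets on summed UMIs, with the 2 libraries as the replicates (edgeR's quasi-likelihood test, all 10811 genes that passed a filter on low counts, Benjamini-Hochberg adjustment). A gene is called at an adjusted p under 0.05 and at least a 2-fold difference. Of the 40 members, 33 passed the filter. AT1-marked droplets had 12 members higher and 3 lower, where 11.6% of all tested genes were higher and 14% lower. Their members' median log2 fold was 1.10, against -0.06 over all genes. Endothelial-marked droplets had 6 members higher and 10 lower (all genes 18% and 17.5%), and a median of 0.10 against 0.01. Fibroblast-marked droplets had 11 higher, where 5.68% of all genes were higher. None was lower in them by edgeR (all genes 0.333%), nor at an unadjusted p under 0.05 or by DESeq2, with 0 members each. Basal-marked droplets had 4 higher and 3 lower (all genes 6.98% and 8.7%), ciliated-marked droplets 6 and 14 (19% and 16.4%), and club-marked droplets 2 and 9 (6.78% and 6.7%). Members that passed the filter through the class where they are high had to differ, so these counts and medians are descriptions. The same holds for the folds and adjusted p-values of such members below. Among them are Col8a2, Col6a5, Col17a1, Col6a3, Col13a1, Col1a1 and Col3a1, which were low in AT2 droplets.

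Levels below are CPM, counts of UMIs scaled to a common total over a class's summed UMIs, while folds come from the fit with its TMM scaling. AT2 markers alone are 36.1% and 35.7% of AT2 UMIs, and TMM scaling placed folds lower than CPM ratios by 1.71 and 1.69 times in AT1-marked, 1.78 and 1.85 times in endothelial-marked and 1.76 and 1.66 times in ciliated-marked droplets. In club-marked droplets, where secretory transcripts fill the total, it moved folds the other way, by 0.551 and 0.593 times. With CPM scaling in place of TMM, members called higher and lower were 9 and 6 in endothelial-marked, 7 and 9 in ciliated-marked and 1 and 16 in club-marked droplets. The shares of all genes called under that scaling were not counted, so these counts are descriptions. Median log2 CPM ratios to AT2 over all tested genes were 0.78 and 0.61 in endothelial-marked and 0.69 and 0.61 in ciliated-marked droplets. In club-marked droplets they were -0.75 and -0.70. No called member changed sign under that scaling. The p-values rest on 1 library per condition. They measure only the spread between these libraries that is left after the library and class terms. A difference between conditions that varies by class is part of that spread.

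**Figure D1:**
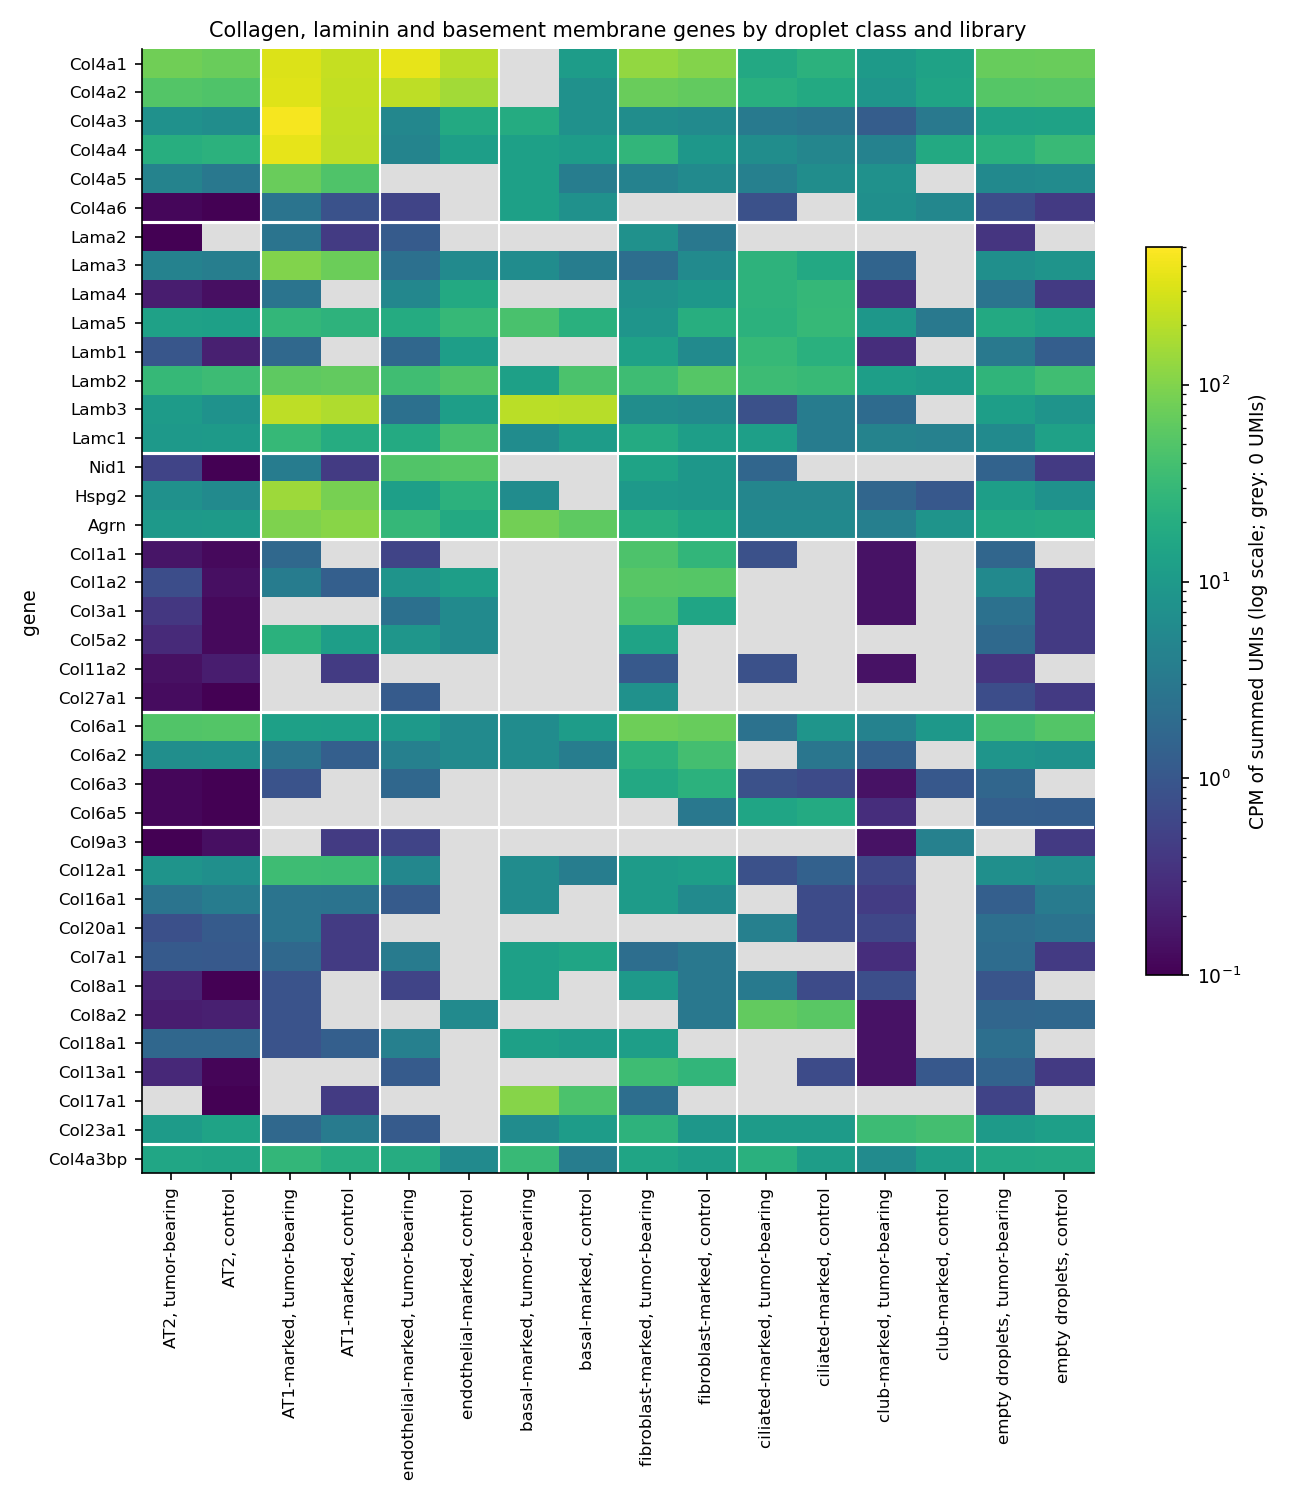
CPM of member genes (rows, log color scale, grey for 0 UMIs) in each class and in empty droplets, with the tumor-bearing and control libraries side by side. Col4a3, Col4a4 and Col4a5 are highest in AT1-marked droplets, Lamb3 in AT1-marked and basal-marked droplets, and Col1a1, Col1a2 and Col3a1 in fibroblast-marked droplets.

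Collagen IV chains Col4a3, Col4a4 and Col4a5, which form the trimer of the alveolar and kidney filtration basement membranes, were higher in AT1-marked than in AT2 droplets. Col4a3 stood at 451 (tumor-bearing) and 220 CPM (control) in AT1-marked droplets and at 7.32 and 6.43 CPM in AT2 droplets, a log2 fold of 4.76 ± 0.21 (SE, edgeR adjusted p = 3.22e-14). Both AT1-marked values lay far above both AT2 values. Col4a4 was at 364 and 216 CPM against 20.9 and 24.2 CPM, a log2 fold of 2.89 ± 0.25 (edgeR adjusted p = 2.06e-09). Col4a5, an X-linked chain that assembles with both, reached 71.7 and 48.5 CPM against 4.45 and 3.01 CPM, a log2 fold of 3.24 ± 0.24 (edgeR adjusted p = 3.47e-10). Free RNA in empty droplets (1 to 100 UMIs) held Col4a3 at 13.2 and 13.4 CPM and Col4a4 at 22.4 and 31.9 CPM, under the AT1-marked levels and above the AT2 levels.

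Col4a3 and Col4a4 were often found in the same AT1-marked droplet. At least 1 UMI of each was in 122 of 148 droplets of the tumor-bearing library, or 82.4% (exact interval 75.3 to 88.2). The control library had both in 165 of 320 droplets, or 51.6% (45.9 to 57.2). In AT2 droplets the share was 1.48% and 1.01%, at median depths of 8934 and 6934 UMIs against 6385 and 5974.5 UMIs in AT1-marked droplets. In ciliated-marked droplets, whose median depths were 5137 and 4379.5 UMIs, it was 0 of 216, which allows up to 1.39%, and 0.343%. After each droplet was thinned to 2000 UMIs, Col4a3 was seen in 56.6% and 33.3% of AT1-marked droplets, compared with 89.2% and 68.8% before. Thinned shares of Col4a4 were 51.6% and 34.7%, compared with 87.8% and 70.3% before. For this pair and those below, whether chains shared droplets more often than their separate shares would give was not tested. Intervals and limits here and below are 95% and cover counting error only.

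The broadly expressed chains Col4a1 and Col4a2, which form the collagen IV trimer found in most basement membranes, were higher in both AT1-marked and endothelial-marked droplets. Col4a1 was at 315 and 238 CPM in AT1-marked and 370 and 202 CPM in endothelial-marked droplets, against 80.2 and 70.5 CPM in AT2 droplets. Its log2 fold was 1.10 ± 0.18 (edgeR adjusted p = 3.16e-05) in AT1-marked and 1.16 ± 0.20 (edgeR adjusted p = 3.83e-05) in endothelial-marked droplets. Col4a2 was at 325 and 229 CPM, and at 212 and 154 CPM, against 50.9 and 48.4 CPM, with log2 folds of 1.69 ± 0.17 (edgeR adjusted p = 1.61e-08) and 1.08 ± 0.19 (edgeR adjusted p = 4.17e-05). In empty droplets Col4a1 reached 69.2 and 71.9 CPM and Col4a2 52.2 and 55.6 CPM, close to the AT2 levels. With free RNA subtracted, the call of Col4a1 in AT1-marked droplets and those of both chains in endothelial-marked droplets were lost, and the latter also with classes taken from clusters. The amount subtracted from AT1-marked droplets was scaled on hemoglobin UMIs, and 562 of 604 red cell marker UMIs there in the tumor-bearing library came from 1 droplet. Their annotated transcripts overlap on opposite strands, and whether the authors' counting used strand is not given in the sources used here.

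Both chains were low in airway classes. Basal-marked droplets held 0 and 3 UMIs of Col4a1 and 0 and 2 UMIs of Col4a2, with log2 folds of -4.02 ± 0.55 and -4.01 ± 0.59 (edgeR adjusted p = 9.84e-06 and 2.19e-05). Ciliated-marked droplets held Col4a1 at 17.3 and 23.5 CPM, a log2 fold of -2.63 ± 0.25 (edgeR adjusted p = 5.15e-09). There the fall of Col4a2 was to 21.5 and 17.8 CPM, a log2 fold of -2.12 ± 0.23 (edgeR adjusted p = 4.04e-08). All 4 airway values of each chain in these classes lay below both AT2 values. Both genes were also lower in club-marked droplets, with log2 folds of -2.02 ± 0.25 and -1.54 ± 0.23 (edgeR adjusted p = 2.01e-06 and 2.56e-05). The call of Col4a2 there was lost with free RNA subtracted. Fibroblast-marked droplets held Col4a1 at 127 and 101 CPM, which did not pass the test. Within that class Col4a1 was at 349 and 159 CPM (43 and 10 UMIs) in the droplets with Sftpc under 15% and at 93.1 and 88.2 CPM (75 and 24 UMIs) in those with more Sftpc, values with no test.

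The alveolar chains were also low outside AT1-marked droplets. Endothelial-marked droplets held 8 and 2 UMIs of Col4a4 (4.62 and 11.9 CPM), a log2 fold of -2.96 ± 0.55 (edgeR adjusted p = 9.09e-05). Col4a5 had 0 UMIs in endothelial-marked droplets of both libraries. The limit that this allows is 1.73 CPM in the tumor-bearing library, under the 4.45 CPM of its AT2 droplets, but 17.8 CPM in the control library, where a difference was not detectable at this depth. Col4a3, at 5.20 and 17.8 CPM, had a log2 fold of -1.15 ± 0.47 (edgeR adjusted p = 4.50e-02). When droplets with more than 1 mark were kept, Col4a3 reversed in endothelial-marked droplets to a log2 fold of 1.40, and Col4a4 and Col4a5 were no longer called. The same call of Col4a3 was also lost with the Sftpc share at 25%, free RNA subtracted, classes taken from clusters, DESeq2, no library term and CPM scaling. In ciliated-marked droplets Col4a4 fell to 6.61 and 4.98 CPM and Col4a3 to 3.30 and 2.85 CPM, with log2 folds of -2.74 ± 0.45 and -1.95 ± 0.48 (edgeR adjusted p = 2.06e-05 and 1.68e-03). The call of Col4a3 in ciliated-marked droplets was lost with CPM scaling.

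Col4a6, the neighbour of Col4a5 with 1309 bases between their starts on chromosome X, was below the filter and was not tested. Club-marked droplets held 45 and 5 of its UMIs, or 72.6% and 41.7% of those in droplets. Col4a5 was higher in club-marked droplets with 49 UMIs where the tumor was present and 0 in the control library (log2 fold 1.41 ± 0.35, edgeR adjusted p = 4.84e-03). That call rests on the tumor-bearing library and was lost with DESeq2, with CPM scaling and with free RNA subtracted.

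**Figure D2:**
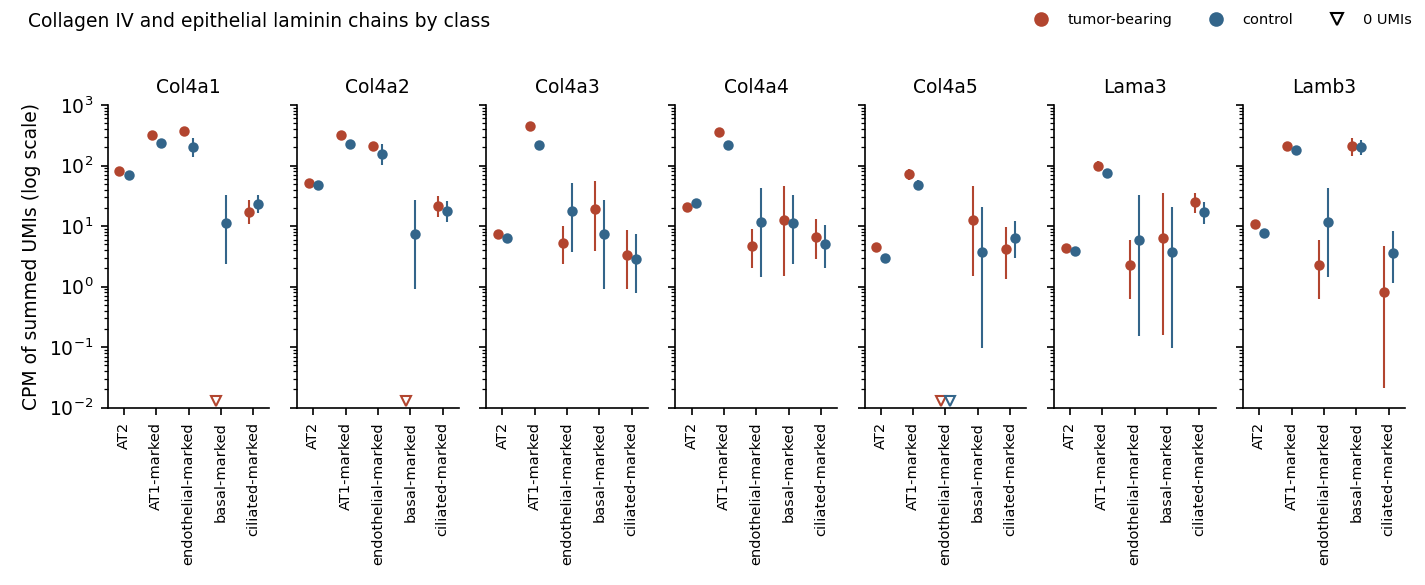
CPM (log axis) of basement membrane chains in each class, 1 point per library with its exact 95% Poisson interval, and open triangles for 0 UMIs. Col4a3 lies at 451 and 220 CPM in AT1-marked droplets and at 18.8 CPM or less in every other class shown.

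The laminin chains Lama3 and Lamb3, parts of the laminin that anchors epithelia through hemidesmosomes, were both higher in AT1-marked droplets. Lamb3 was at 211 and 181 CPM against 10.9 and 7.57 CPM in AT2 droplets, a log2 fold of 3.66 ± 0.20 (edgeR adjusted p = 1.59e-12). Lama3 stood at 99.5 and 74.0 CPM against 4.34 and 3.87 CPM, a log2 fold of 3.61 ± 0.16 (edgeR adjusted p = 3.33e-14). For each of them, both AT1-marked values exceeded both AT2 values. Both chains were found together in 34.5% (26.8 to 42.7) and 27.8% (22.97 to 33.1) of AT1-marked droplets, in 0.611% and 0.263% of AT2 droplets and in 0% (0 of 216) and 0.343% of ciliated-marked droplets. Of the 148 and 320 AT1-marked droplets, 14 and 30 had Lama3 without Lamb3, and 51 and 120 had Lamb3 without Lama3.

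Basal-marked droplets, from the progenitor cells of the airway, carried Lamb3 but little Lama3. Lamb3 reached 207 and 203 CPM there, a log2 fold of 3.87 ± 0.28 (edgeR adjusted p = 4.73e-10), with a UMI in 68.2% and 71.1% of droplets. Lama3 had 1 UMI in each library (6.27 and 3.75 CPM) and did not pass the test (log2 fold -0.41 ± 0.96). At 159528 and 266516 summed UMIs, the basal-marked sums carry a wide counting error for Lama3. Lamb3 overlaps Hsd11b1 and G0s2 on the other strand. Whether the authors' counting kept reads of opposite strands apart is not given in the sources used here.

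Lama3 had a further site of higher level. Ciliated-marked droplets held it at 24.8 and 17.1 CPM, a log2 fold of 1.56 ± 0.25 (edgeR adjusted p = 1.46e-05), while Lamb3 was lower there. Lamb3 fell to 0.826 and 3.56 CPM, a log2 fold of -2.75 ± 0.50 (edgeR adjusted p = 6.01e-05). In endothelial-marked droplets Lamb3 had 4 and 2 UMIs and a log2 fold of -2.44 ± 0.53 (edgeR adjusted p = 5.37e-04). Lama3 had 4 and 1 UMIs and a log2 fold of -1.59 ± 0.54 (edgeR adjusted p = 1.88e-02). With droplets of more than 1 mark kept, Lamb3 and Lama3 reversed to 0.13 and 0.82. The endothelial call of Lama3 was also lost with the Sftpc share at 25%, free RNA subtracted, classes from clusters, DESeq2, no library term and CPM scaling. Club-marked droplets had Lamb3 lower (log2 fold -1.65 ± 0.42, edgeR adjusted p = 5.83e-03), which DESeq2 did not call.

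Lama4 and Lamb1, chains of the laminins of vessels and mesenchyme, were highest among the classes in ciliated-marked droplets. Lama4 was at 24.8 and 29.2 CPM there against 0.197 and 0.140 CPM in AT2 droplets, a log2 fold of 6.48 ± 0.54 (edgeR adjusted p = 1.17e-09). These droplets held 39.5% and 67.2% of all its UMIs in droplets. Lamb1 was at 29.7 and 22.1 CPM against 0.985 and 0.210 CPM, a log2 fold of 4.83 ± 0.51 (edgeR adjusted p = 3.83e-08). Both chains shared a droplet in 2.78% (1.03 to 5.95) and 1.37% (0.375 to 3.47) of ciliated-marked droplets. Fibroblast markers made up 0.00182% and 0.00135% of UMIs in ciliated-marked droplets, with 5 and 7 of 11 detected and Tcf21, Pdgfra and Lum at 0 in both libraries. Markers of smooth muscle and pericytes made up 0.00165% and 0.0005%, with 5 and 4 of 10 detected.

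Lama4 was also higher in the classes with stroma or vessel marks. Endothelial-marked droplets held 9 and 3 of its UMIs (5.20 and 17.8 CPM), a log2 fold of 4.40 ± 0.85 (edgeR adjusted p = 1.69e-04). In fibroblast-marked droplets its log2 fold was 5.16 ± 0.93 (edgeR adjusted p = 5.54e-04), and that of Lamb1 3.74 ± 0.79 (edgeR adjusted p = 2.88e-03), a call lost with a minimum of 4000 UMIs and with free RNA subtracted. The remaining chain of that trimer, Lamc1, differed less. It was at 30.5 and 19.5 CPM in AT1-marked, 18.5 and 41.5 CPM in endothelial-marked and 10.0 and 10.3 CPM in AT2 droplets, and neither class passed the test (log2 folds 0.45 ± 0.23 and 0.15 ± 0.31). In ciliated-marked droplets Lamc1 was lower at 12.4 and 3.56 CPM by the scaled fit (log2 fold -1.18 ± 0.35, edgeR adjusted p = 6.58e-03). The CPM value of the tumor-bearing library there lay above its AT2 value, and the call was lost with CPM scaling, DESeq2 and 2 other settings.

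Lama5 and Lamb2, chains of the main laminin of the mature alveolar wall, passed the test in none of the 6 classes. Lama5 was at 12.9 and 12.4 CPM in AT2, 27.8 and 24.7 CPM in AT1-marked, 19.1 and 29.7 CPM in endothelial-marked and 23.96 and 29.9 CPM in ciliated-marked droplets. Its log2 folds ran from -0.42 ± 0.41 in fibroblast-marked to 0.65 ± 0.48 in basal-marked droplets. Lamb2 was at 30.4 and 34.6 CPM in AT2 and 60.0 and 63.6 CPM in AT1-marked droplets, with a log2 fold of 0.16 ± 0.18 (edgeR adjusted p = 4.88e-01). In ciliated-marked droplets the Lamb2 difference of -0.75 ± 0.20 had an edgeR adjusted p of 3.36e-03 and missed the 2-fold size. Lama2, the laminin chain of muscle and nerve, was below the filter, with 7 UMIs in fibroblast-marked droplets of the tumor-bearing library, or 30.4% of its UMIs.

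The linker genes divided between alveolar epithelium and vessel marks. Hspg2 (perlecan, a heparan sulfate proteoglycan) was at 142 and 87.4 CPM in AT1-marked against 7.49 and 5.99 CPM in AT2 droplets, a log2 fold of 3.28 ± 0.16 (edgeR adjusted p = 1.00e-13). Agrn (agrin, which binds laminin and dystroglycan) was at 96.8 and 110 CPM against 9.64 and 10.5 CPM, a log2 fold of 2.60 ± 0.16 (edgeR adjusted p = 9.62e-12). It was also higher in basal-marked droplets at 81.5 and 60.0 CPM, a log2 fold of 2.13 ± 0.33 (edgeR adjusted p = 3.74e-05). In endothelial-marked droplets neither was called, with Hspg2 at 12.1 and 23.7 CPM and Agrn at 29.4 and 17.8 CPM. Both were lower in ciliated-marked droplets (log2 folds -1.20 ± 0.36 and -1.58 ± 0.32, edgeR adjusted p = 7.88e-03 and 2.24e-04), and both of those calls were lost with CPM scaling.

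Nid1 (nidogen, which bridges laminin and collagen IV) had its highest level in endothelial-marked droplets. It was at 49.7 and 53.4 CPM there against 0.575 and 0.0839 CPM in AT2 droplets, a log2 fold of 6.21 ± 0.56 (edgeR adjusted p = 8.52e-09). These droplets held 47.0% and 33.3% of its UMIs in droplets. In AT1-marked droplets 4 and 1 UMIs of Nid1 were counted (3.58 and 0.433 CPM), above the AT2 levels but not called. Basal-marked droplets held 0 in both libraries. The limit that this allows is 18.8 and 11.3 CPM, so a level like that of AT2 droplets was not detectable at this depth. Fibroblast-marked droplets had a log2 fold of 4.75 ± 0.77 (edgeR adjusted p = 1.99e-04), on 14.0 CPM in the tumor-bearing library. Nid2, its paralog, had 15 UMIs in all and stayed under the minimum.

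The rope-forming fibrillar collagens Col1a1, Col1a2 and Col3a1 had higher levels in fibroblast-marked droplets than in any other class. Col1a1 was at 46.3 and 26.9 CPM there against 0.164 and 0.126 CPM in AT2 droplets, a log2 fold of 7.49 ± 0.62 (edgeR adjusted p = 1.20e-08). Its partner Col1a2 was at 54.9 and 53.7 CPM against 0.755 and 0.140 CPM, a log2 fold of 6.64 ± 0.52 (edgeR adjusted p = 1.00e-08). Col3a1 reached 44.1 and 14.9 CPM against 0.394 and 0.126 CPM, a log2 fold of 6.46 ± 0.61 (edgeR adjusted p = 2.31e-07). Both fibroblast-marked values of each gene lay above both AT2 values, although the control values rest on 5 to 18 UMIs. Col1a1 and Col1a2 shared a droplet in 10.3% (5.46 to 17.4) and 7.69% (2.14 to 18.5) of fibroblast-marked droplets, in 0.0305% and 0.0101% of AT2 droplets and in none of the ciliated-marked droplets, which allows up to 1.39% and 1.03%.

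Fibrillar transcripts in Sftpc-rich droplets lay out of proportion in the few that carried fibroblast marks. Among droplets with Sftpc at 15% or more, the fibroblast-marked ones held 1.28% and 0.375% of all UMIs. They held 56 of 136 summed UMIs of Col1a1, Col1a2 and Col3a1 in the tumor-bearing library, or 41.2% (32.8 to 49.9), and 15 of 43 in the control library, or 34.9% (21.0 to 50.9). For Col4a1 the same share was 1.44% and 0.466%, and for Col6a1 it was 1.37% and 0.431%, both near the share of all UMIs. With the AT2 markers given above in fibroblast-marked droplets, the part of mixed droplets in these shares was not tested.

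**Figure D3:**
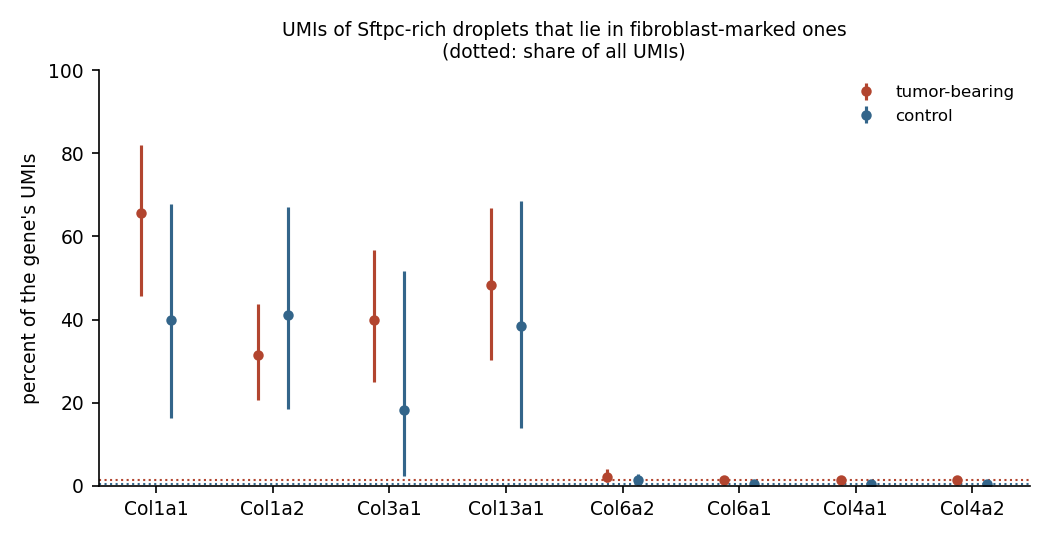
Share of each gene's UMIs in Sftpc-rich droplets that lay in fibroblast-marked droplets, 1 point per library with its exact 95% binomial interval, beside the share of all UMIs. Col1a1, Col1a2 and Col3a1 lie between 18.2% (Col3a1, control) and 65.5% (Col1a1, tumor-bearing), and Col4a1 lies at 1.44% and 0.466%.

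Col5a2, a chain of the collagen that starts fibril assembly, was not limited to the fibroblast mark. It was higher in AT1-marked droplets at 23.3 and 11.7 CPM against 0.279 and 0.126 CPM in AT2 droplets, a log2 fold of 5.62 ± 0.53 (edgeR adjusted p = 3.50e-08). Those AT1-marked values rest on 26 and 27 UMIs, and Col1a1 had 2 and 0 UMIs and Col3a1 0 and 0 in the same droplets. Col1a2 had 4 and 3 UMIs there (3.58 and 1.30 CPM) and did not pass the test (log2 fold 1.71 ± 0.86, edgeR adjusted p = 1.14e-01). In endothelial-marked droplets Col5a2 was at 8.66 and 5.94 CPM, a log2 fold of 4.07 ± 0.73 (edgeR adjusted p = 1.02e-04), the control value being 1 UMI. Col1a2 there was at 8.08 and 11.9 CPM, a log2 fold of 3.16 ± 0.71 (edgeR adjusted p = 8.70e-04). In fibroblast-marked droplets Col5a2 had 13 and 0 UMIs and a log2 fold of 4.95 ± 0.79 (edgeR adjusted p = 2.15e-04), lost with a minimum of 4000 UMIs. Col27a1 and Col11a2, the remaining fibrillar members, were below the filter. Col27a1 had 7 UMIs, or 30.4% of its total, in fibroblast-marked droplets of the tumor-bearing library.

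Collagen VI forms beaded filaments close to basement membranes from chains such as Col6a1, Col6a2 and Col6a3. Col6a1 was highest in AT2 and fibroblast-marked droplets, at 49.0 and 51.3 CPM and at 76.5 and 68.7 CPM, and the difference did not pass the test (log2 fold 0.25 ± 0.22, edgeR adjusted p = 6.05e-01). The fibroblast-marked droplets with Sftpc under 15%, 35 and 11 in number, held Col6a1 at 235 and 111 CPM (29 and 7 UMIs), and those with more Sftpc at 52.1 and 58.8 CPM (42 and 16 UMIs), values with no test. Its level was lower in every other class. In AT1-marked droplets Col6a1 was at 12.5 and 12.1 CPM, a log2 fold of -2.81 ± 0.24 (edgeR adjusted p = 2.54e-09), and in endothelial-marked droplets at 9.82 and 5.94 CPM, a log2 fold of -3.20 ± 0.32 (edgeR adjusted p = 1.76e-08). In ciliated-marked droplets it was at 2.48 and 8.54 CPM (log2 fold -3.90 ± 0.30, edgeR adjusted p = 1.68e-10), with log2 folds of -3.06 ± 0.52 in basal-marked and -2.41 ± 0.27 in club-marked droplets (edgeR adjusted p = 1.30e-04 and 3.68e-07). Empty droplets held Col6a1 at 39.4 and 51.7 CPM, close to the AT2 levels and above those of the 5 classes where it was lower.

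Col6a2 followed at lower levels, with 6.72 and 6.90 CPM in AT2 droplets. It was at 2.69 and 1.30 CPM in AT1-marked droplets (log2 fold -2.72 ± 0.53, edgeR adjusted p = 1.95e-04) and at 23.7 and 38.8 CPM in fibroblast-marked droplets (log2 fold 1.74 ± 0.37, edgeR adjusted p = 3.12e-03). The latter call was lost with a minimum of 4000 UMIs. In ciliated-marked droplets it had 0 and 4 UMIs and a log2 fold of -2.91 ± 0.60 (edgeR adjusted p = 2.69e-04). Calls of Col6a2 as lower in endothelial-marked and club-marked droplets (log2 folds -1.48 ± 0.55 and -1.62 ± 0.51) were each lost in several settings. Col6a3 was at 0.115 and 0.0559 CPM in AT2 droplets and reached 17.2 and 23.9 CPM in fibroblast-marked droplets, a log2 fold of 7.33 ± 0.74 (edgeR adjusted p = 2.40e-07), with 43.2% and 47.1% of its UMIs there.

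Col6a5, another collagen VI chain, lay elsewhere. Ciliated-marked droplets held it at 14.9 and 18.5 CPM against 0.115 and 0.0420 CPM in AT2 droplets, a log2 fold of 6.81 ± 0.66 (edgeR adjusted p = 3.50e-08). That was 48.6% and 72.2% of its UMIs in droplets. Col6a1 and Col6a2 were both lower in the same class.

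Collagens VII, VIII and XVII attach cells and form sheet-like networks. Col17a1, the transmembrane collagen of hemidesmosomes (ENSMUSG00000025064, chr19:47646344-47692094, minus strand), was found mainly in basal-marked droplets. It had 17 and 12 UMIs there (107 and 45.0 CPM), or 77.3% and 80.0% of its UMIs in droplets, against 0 and 1 UMIs in AT2 droplets. On the TMM scale it was 1291-fold higher in the tumor-bearing library, with 3 counts taken in place of 0 in AT2 droplets. The counting error of its 17 UMIs is not in that value. In the control library it was 2205-fold higher, with a counting interval of 326 to 94242. The call (edgeR adjusted p = 7.09e-09) was not made by DESeq2, with an adjusted p of 0.0866. Col7a1, which forms anchoring fibrils, had 2 and 4 UMIs in basal-marked droplets (12.5 and 15.01 CPM against 1.10 and 1.09 CPM, log2 fold 3.05 ± 0.88, edgeR adjusted p = 1.71e-02), a call lost with free RNA subtracted. In ciliated-marked droplets Col7a1 was called lower on 0 UMIs in both libraries, and the call was lost with CPM scaling. Its AT2 level lay under the limit of 2.48 and 2.13 CPM that this allows, so by CPM a difference was not detectable at this depth.

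Col8a2, a short-chain collagen known from the basement membrane of the cornea (ENSMUSG00000056174, chr4:126286793-126314330, plus strand), marked the ciliated class. It was at 64.4 and 56.2 CPM there against 0.197 and 0.210 CPM in AT2 droplets, a log2 fold of 7.36 ± 0.40 (edgeR adjusted p = 1.06e-12). Ciliated-marked droplets held 78.0% and 76.7% of its UMIs, and 30.6% and 22.6% of them had at least 1. In AT1-marked droplets it had 1 and 0 UMIs. Its partner chain Col8a1 had 4 and 1 UMIs in ciliated-marked droplets (log2 fold 2.88 ± 0.98, edgeR adjusted p = 1.66e-02, a call lost without the library term) and 9 UMIs in fibroblast-marked droplets of the tumor-bearing library (log2 fold 4.96 ± 0.86, edgeR adjusted p = 2.90e-04). Most of its UMIs, 58.0% and 64.7%, lay in droplets with no mark and Sftpc under 15%, of which there were 172 and 161.

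Among collagens that decorate fibrils, Col12a1 was higher in AT1-marked droplets. It was at 35.8 and 34.6 CPM against 8.16 and 7.01 CPM in AT2 droplets, a log2 fold of 1.47 ± 0.21 (edgeR adjusted p = 3.49e-06). It was lower in ciliated-marked droplets, with 1 and 2 UMIs (log2 fold -3.47 ± 0.53, edgeR adjusted p = 7.85e-06), and in club-marked droplets (log2 fold -3.03 ± 0.51, edgeR adjusted p = 1.09e-04). The endothelial-marked call (log2 fold -1.59 ± 0.43, edgeR adjusted p = 3.75e-03) rests on 9 and 0 UMIs and was lost in 3 settings. Col16a1, Col20a1 and Col9a3 were below the filter, with Col16a1 at 2.69 and 3.52 CPM in AT2 droplets.

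The membrane-bound collagens took different places. Col23a1 was at 34.2 and 38.6 CPM in club-marked against 10.7 and 14.0 CPM in AT2 droplets, a log2 fold of 2.42 ± 0.18 (edgeR adjusted p = 5.49e-10), with a UMI in 45.3% and 33.8% of club-marked droplets. The CPM ratio is smaller than this fold by the scaling given above. In AT1-marked droplets Col23a1 was at 1.79 and 3.46 CPM (log2 fold -2.87 ± 0.36, edgeR adjusted p = 7.03e-07), and in endothelial-marked droplets it had 2 and 0 UMIs (log2 fold -4.26 ± 0.60, edgeR adjusted p = 2.96e-06). Col13a1 was at 35.5 and 26.9 CPM in fibroblast-marked against 0.263 and 0.112 CPM in AT2 droplets, a log2 fold of 6.99 ± 0.63 (edgeR adjusted p = 6.50e-08), with 55.9% and 37.5% of its UMIs there. Col18a1, the source of endostatin, was called in ciliated-marked droplets only, as lower on 0 UMIs in both libraries. That call was lost with free RNA subtracted. Its AT2 levels of 1.74 and 1.71 CPM lay under the limit of 2.48 and 2.13 CPM, so by CPM the difference was not detectable at this depth.

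**Figure D4:**
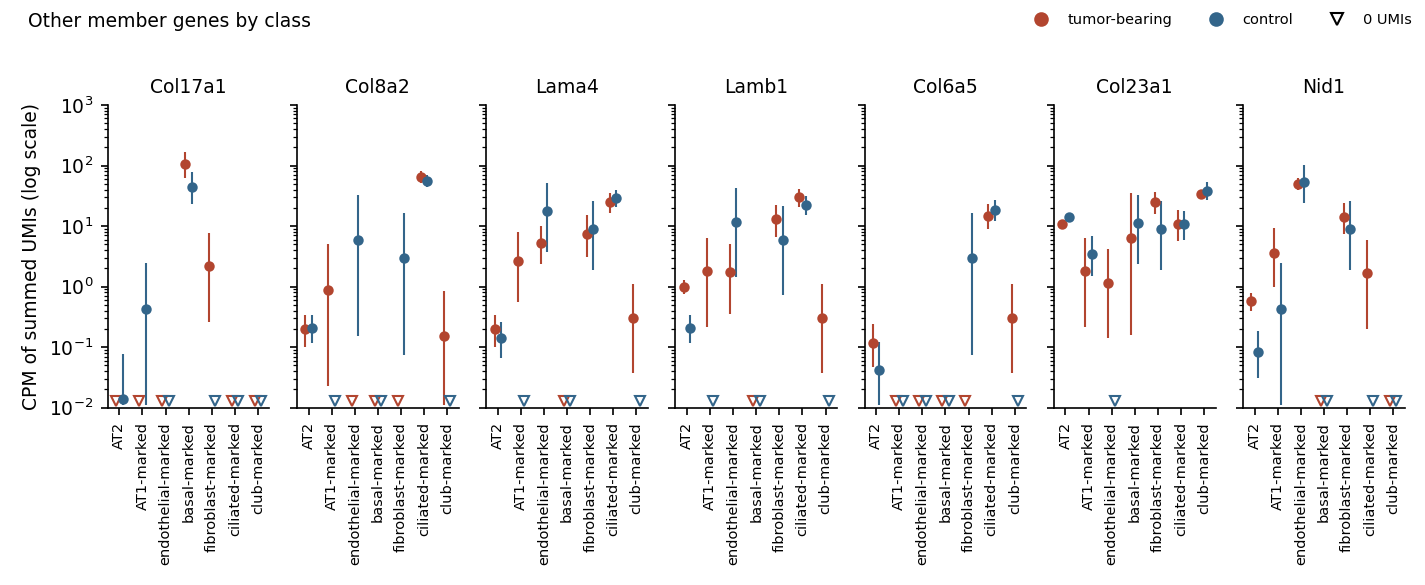
CPM (log axis) of Col17a1, Col8a2, Lama4, Lamb1, Col6a5, Col23a1 and Nid1 in each class, 1 point per library with its exact 95% Poisson interval and open triangles for 0 UMIs. Col17a1 stands out in basal-marked droplets, Col8a2 in ciliated-marked droplets (64.4 and 56.2 CPM) and Nid1 in endothelial-marked droplets (49.7 and 53.4 CPM).

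Of the 20 symbols under the minimum, 7 had 0 UMIs, namely Col9a1, Col19a1, Col24a1, Col10a1, Col6a6, Col6a4 and Lama1. Col4a3bp was at 15.7 and 14.7 CPM in AT2 and 27.8 and 20.3 CPM in AT1-marked droplets and was called in no class.

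Levels of the members in the tumor-bearing and control libraries were then compared within each class, by a rule of at least 20 CPM in either library, a 2-fold difference and separate Poisson intervals. In AT1-marked droplets 16 members reached 20 CPM, of which 14 were above and 2 below the control level, with a median log2 ratio of 0.47 against -0.02 over all 5771 genes at that level. Col4a3 was the only one to meet the rule, where 1.92% of all genes were higher and 0.572% lower by it. Its level was 451 CPM (412 to 492) with the tumor and 220 CPM (201 to 240) without, which gives a ratio of 2.05 (1.81 to 2.32). The ratio of its neighbour Col4a4 was 1.68 (1.47 to 1.92), that of Col5a2 1.99 (1.12 to 3.55) and that of Hspg2 1.62 (1.31 to 2.00). Col4a2 was at 1.42 times (1.24 to 1.63), Lamb3 at 1.17 times, Lamb2 at 0.944 times and Agrn at 0.884 times (0.699 to 1.11) the control level.

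The ratio of Col4a3 lies at the edge of the rule. It fell under 2-fold with the Sftpc share at 25%, with a stricter marker cut, with droplets of more than 1 mark kept and with classes from clusters, where its log2 ratio was 0.92, the lowest of the alternatives. Markers of other cells differed between the AT1-marked sums. AT2 markers made up 5.50% and 6.85% of UMIs, club markers 0.763% and 0.139%, endothelial markers 0.102% and 0.0593% and red cell markers 0.0541% and 0.0155%. Of the red cell marker UMIs, 562 of 604 and 225 of 359 came from 1 droplet in each library. The part of these markers in the ratios was not tested.

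**Figure D5:**
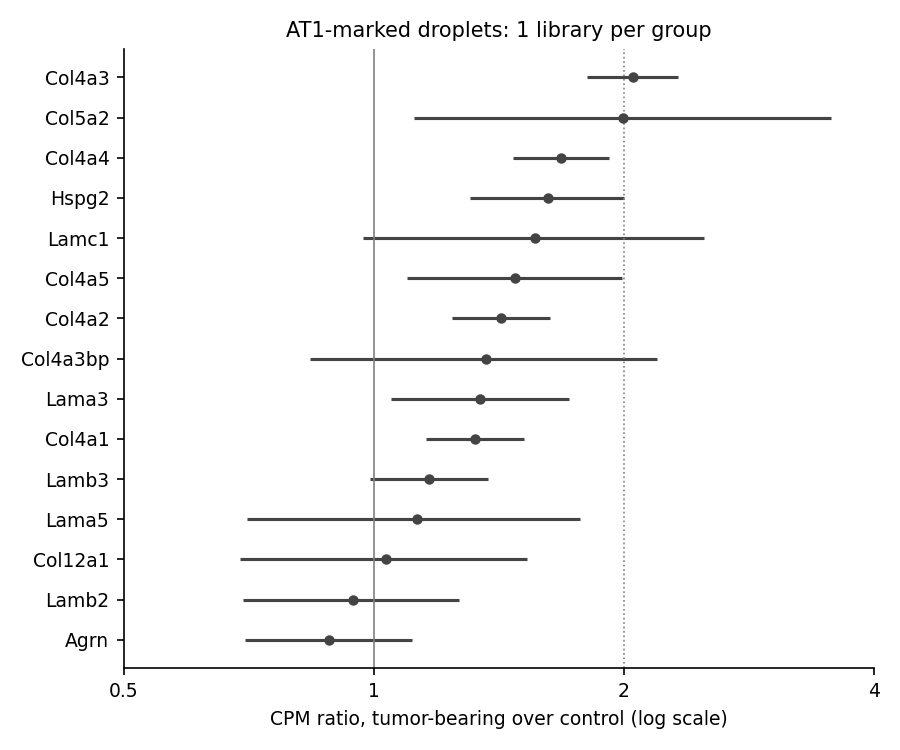
Ratio of tumor-bearing to control CPM in AT1-marked droplets (log axis) for members at 20 CPM or more, with its exact 95% counting interval. Col4a3 lies at 2.05, and Lamb2 and Agrn lie below 1.

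In AT2 droplets, the deepest class, the libraries lay close together. The 5 members at 20 CPM or more had ratios of 1.14 (Col4a1), 1.05 (Col4a2), 0.956 (Col6a1), 0.879 (Lamb2) and 0.863 (Col4a4), and 0 met the rule, where 0.574% of all genes were higher and 0.2% lower. Without the CPM minimum, Col1a2, Col3a1, Lamb1 and Nid1 met the rest of it, all higher in the tumor-bearing library. The share of all genes that met this altered rule was not counted. Those members rest on 46 and 10, 24 and 9, 60 and 15, and 35 and 6 UMIs. Beside them, endothelial markers made up 0.0230% and 0.0126% and fibroblast markers 0.00448% and 0.00250% of AT2 UMIs, and in empty droplets 0.0893% and 0.0221%, and 0.0332% and 0.0115%. The part of those markers was not tested.

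In the other classes no member met the rule. Endothelial-marked droplets had 8 members at 20 CPM (all genes 0.952% higher and 0.998% lower), with Col4a1 at 1.83 times (1.30 to 2.67), Lamc1 at 0.445 times, Hspg2 at 0.511 times and Lama5 at 0.642 times the control level. Basal-marked droplets had 7 (0.823% and 0.385%), with Col17a1 at 2.37 times (1.07 to 5.43), Lama5 at 1.95 times and Lamb2 at 0.278 times. Their largest ratio, 8.35 for Col4a3bp (0.935 to 395), came from 5 UMIs against 1. Fibroblast-marked droplets had 14 (0.946% and 1.34%), with Col4a4 at 3.01 times (0.917 to 15.6), Col3a1 at 2.96 times (1.17 to 9.59) and Col23a1 at 2.77 times, and Lama5 at 0.412 times, Col6a2 at 0.610 times and Lamb2 at 0.661 times. Ciliated-marked droplets had 9 (0.842% and 1.13%), and club-marked droplets 1 (0.667% and 2.08%). These intervals are wide, since the sums of the smaller classes hold 159528 to 1731895 UMIs.

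Genes that bind, build or cut these proteins, from lists that do not contain members, were counted in the same fit. The shares of all tested genes beside them are those called higher and lower in each class. In AT1-marked droplets, where these shares are 11.6% and 14%, 6 of 13 tested receptors were higher and 2 lower, with Ddr1 (a collagen receptor kinase, log2 fold 2.41 ± 0.17), Itga3 (an integrin subunit that binds laminin, 2.33 ± 0.17) and Cd151 (its tetraspanin partner, 2.15 ± 0.15) leading. Of 18 collagen assembly genes 8 were higher and 1 lower. Plod2, a lysyl hydroxylase, had a log2 fold of 5.62 ± 0.18 (edgeR adjusted p = 2.10e-16), Pxdn, the peroxidase that crosslinks collagen IV, 4.70 ± 0.37 and Pcolce 2.96 ± 0.21. Among 9 other basement membrane genes 3 were higher, Ntn4 (4.30 ± 0.28), Sparc (3.59 ± 0.19) and Npnt (1.16 ± 0.19), and 2 lower, with Egfl6 at -3.00 ± 0.20. Of 10 turnover genes 5 were higher and 1 lower, led by the inhibitors Timp2 (4.06 ± 0.16) and Timp3 (3.18 ± 0.16) and by Mmp11 (3.16 ± 0.17).

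In endothelial-marked droplets (all genes 18% higher and 17.5% lower) the same lists had 6, 8, 4 and 4 genes higher and 4, 4, 3 and 2 lower. Hmcn1 (hemicentin, log2 fold 6.65 ± 0.31), Pxdn (5.57 ± 0.38), Itga1 (a collagen-binding integrin subunit, 5.12 ± 0.42) and Mmp2 (a gelatinase, 4.79 ± 0.81) led them. Basal-marked droplets (all genes 6.98% and 8.7%) had 4, 2, 2 and 2 higher and 0, 2, 2 and 1 lower, and Itgb4, the hemidesmosome integrin subunit, had a log2 fold of 6.66 ± 0.45 (edgeR adjusted p = 1.61e-10) beside Fbln1 at 8.40 ± 0.66 and Ltbp4 at 6.39 ± 0.34. Fibroblast-marked droplets (all genes 5.68% and 0.333%) had 2, 4, 5 and 3 higher and none lower. Loxl1, a lysyl oxidase, led with 7.98 ± 0.65, followed by Fbln1 (7.08 ± 0.67), Pcolce2 (7.06 ± 0.26) and Mmp2 (6.59 ± 0.71). In ciliated-marked droplets (all genes 19% and 16.4%) 5, 1, 1 and 2 were higher and 3, 6, 4 and 1 lower, with Ctsk (cathepsin K) at 6.80 ± 0.18, Itgb4 at 5.94 ± 0.28 and Itga11 at 4.56 ± 0.54. In club-marked droplets (all genes 6.78% and 6.7%) 1, 0, 0 and 2 were higher and 0, 2, 3 and 0 lower.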

How the data were processed

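Droplet libraries of sorted lung cells, 1 tumor-bearing and 1 control, were used. What the authors deposited are UMI counts, unfiltered and not normalised, for 737280 barcodes per library. Per the series design text, reads were processed with Cell Ranger 2.1.0, and mm10, Seurat and R 3.5.3 stand in the submitters' processing notes without a stated role. No submitted cell annotation was used, so the classes are rebuilt ones, and the submitters' own may be different.

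Droplets with at least 2000 UMIs were kept. A class needed a minimum number of detected markers and a minimum share of UMIs: AT1 4 markers and 1.5%, endothelial and ciliated 4 and 0.5%, basal and fibroblast 3 and 0.1%, club 3 and 20%. Classes other than fibroblast-marked also needed Sftpc under 15%, droplets with more than 1 mark were left out, and these limits were set after the marker distributions had been seen. Within 80% and 125% of the AT1 share limit lay 16 and 34 droplets below and 18 and 21 above. Scrublet called 0 doublets in either library, so none were removed in the main setting, and mixed droplets can remain. As an alternative, the 537 (tumor-bearing) and 969 (control) droplets with the highest Scrublet scores were removed. All 80 member calls against AT2 were kept under it.

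UMIs were summed per class and library (14 sums) and fitted with edgeR 4.0.16 (R 4.3.3; TMM, library and class as terms, 6 residual degrees of freedom). DESeq2 1.42.0 was an alternative. Libraries were compared by CPM with exact Poisson and conditional binomial intervals, a pseudocount of 1 CPM on log2 ratios and no test. Scripts were tested on simulated data. Coordinates are from GENCODE vM21 on mm10. Named members had the largest folds among those called (up to 8 per direction and class), reached 100 CPM, met the size rule, had the 3 largest ratios per direction between libraries, or belonged to the fixed chain sets. Partner genes were the 3 largest per list. Of the members, 1 is counted in the totals but not reported here. The members, lists and comparisons were chosen with earlier results of these data known.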

Additional observations from a re-analysis of the deposited data

How the results depend on the processing

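Of 80 member calls against AT2, 51 kept direction and threshold under every alternative that gave them a value, and 29 lost the call or reversed under some. In AT1-marked droplets only Col4a1 lost its call, with free RNA subtracted. Keeping droplets with more than 1 mark reversed 3 calls in endothelial-marked droplets, to log2 folds of 1.40 for Col4a3, 0.13 for Lamb3 and 0.82 for Lama3, the cause was not tested, and gave 10 members higher and 3 lower there and 7 higher in basal-marked droplets. Classes from clusters gave 3 and 6 in endothelial-marked droplets. CPM scaling, chosen after seeing the data, gave 6 lower in endothelial-marked, 9 lower in ciliated-marked, and 1 higher and 16 lower in club-marked droplets. In fibroblast-marked droplets a minimum of 4000 UMIs gave 6 higher. In club-marked droplets an Sftpc share of 25% gave 4 higher, no filter on low counts 4 higher, free RNA subtraction 1 higher and 4 lower, and DESeq2 4 lower. The shares of all genes called under these alternatives were not counted, so the counts only describe how the calls moved. No called member had a value in endothelial-marked or basal-marked droplets at 4000 UMIs or in fibroblast-marked droplets under clusters, and single members such as Col8a1 had none under some other alternatives.

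Leaving out 1 library left a fold in the other with no test. Without the tumor-bearing library, members lower were 4 in endothelial-marked, 5 in basal-marked, 1 in fibroblast-marked and 5 in club-marked droplets, and 1 was higher in club-marked droplets. Over both such settings the ranges were 4 to 10, 4 to 5, 0 to 1, 5 to 11 and 1 to 3. Shares of all genes were not counted for these settings either.

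Between libraries in AT1-marked droplets, 0 members met the rule with an Sftpc share of 25%, a stricter marker cut, droplets with more than 1 mark kept or classes from clusters, 3 met a 1.5-fold rule and 5 after free RNA subtraction, which was scaled there on hemoglobin UMIs mostly from 1 droplet. No CPM minimum gave 4 in AT2 droplets. Endothelial-marked droplets gave 1 (Col4a1) with a stricter cut and with the 1.5-fold rule. Fibroblast-marked droplets gave 1 at 1000 UMIs (Col3a1) and 1 with more than 1 mark kept (Col4a3). The shares of all genes that met the rule under these alternatives were not counted, so these counts are descriptions. No paired analysis was possible because each group has 1 library. Sums of basal-marked (159528 and 266516 UMIs) and control endothelial-marked droplets (168475 UMIs) limit the members at low levels.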
